A study of Mus musculus with 3 samples.

Results

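The axon guidance genes described here are the semaphorins of classes 3 to 7, the plexins and neuropilins that receive them, the Slits and Robos, the netrins and Unc5 receptors, and the ephrins and Eph receptors. They were read in single cells from newborn mouse hearts. Members were matched by gene symbol, with earlier results of these data known, and 72 of the 28001 features in each matrix matched. These carry 70 symbols, because Ntn5 is listed under 3 gene IDs, and 3 of them are antisense transcripts of Plxna4 (Plxna4os1, Plxna4os2 and Plxna4os3). The study has 3 droplet libraries made with a 10x Genomics kit, 1 per group. All were made from ICR mice of genotype HCN4H2BGFP at postnatal day 2, whose cells carry a histone-tagged GFP reporter in the nucleus under control of Hcn4, a pacemaker channel gene. From the sinoatrial node region, FACS gave the GFP-positive and the GFP-negative library. The third library was not sorted and is called RA, although its tissue is also labelled as sinoatrial node region. It carried the same reporter allele, and the number of animals behind each library is not stated.

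Guidance molecules were first described as cues that attract or repel growing axons, and the same ligand and receptor pairs shape blood vessels, lymphatics, epicardium and nerves in the heart. Class 3 semaphorins are secreted and bind neuropilins and plexins, while semaphorins of the other vertebrate classes are mostly bound to the membrane and signal through plexins. Slits are secreted and bind Robo receptors, and netrins act on Dcc, neogenin and Unc5 receptors. Ephrins sit on the cell surface and signal to Eph receptors of neighbouring cells, and the pair ephrin-B2 and EphB4 is known for marking arteries and veins.

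Each library held between 1450 and 3346 barcodes and between 19975326 and 50416748 UMIs, and 7610 of 8072 barcodes passed the filters. Only 36 barcodes were met in more than 1 library, and leaving them out moved no count of members given here by over 1.5 times. Of the cells kept, 6486 could be gated to 1 of 8 classes by markers that include no guidance gene: a cell needed at least 3 of 8 markers of its class at 2 UMIs, and at least 2 more than of any other class. The classes compared were endothelial cells (2417 in the GFP-positive, 172 in the GFP-negative and 233 in the RA library), cardiomyocytes (163, 48 and 60), fibroblasts (17, 1735 and 691), mural cells, that is smooth muscle cells and pericytes (5, 237 and 27), epicardial cells (416, 0 and 0) and macrophages (23, 106 and 101). In each of these with at least 20 cells in a library, a cell carried on average 5.65 to 7.54 of its own markers, and at most 3.05 of those of any other class. The summed reporter reads stood at 129.8 counts per 1000000 UMIs (CPM) in GFP-positive cardiomyocytes and at 44.1 CPM in GFP-positive endothelial cells, against 0 and 3.52 CPM in the same classes of the GFP-negative library. With 1 library per group there is no replicate error and no test, and every interval below is a 95% interval that covers counting error only. Levels are CPM over all UMIs of a class in a library, and a member is called different where levels differ by 2-fold or more with at least 20 UMIs behind them.

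Guidance genes were divided between cell classes, with endothelial and epicardial cells leading the most. With the libraries pooled, 59 of the 72 members had at least 20 UMIs in the 6 classes together, and 27 of these (45.8%) had a leading class at 2 times the next class or more. The same held for 24.1% of all 15655 features with that many UMIs. Endothelial cells led 10 members, epicardial cells 10, mural cells 3, and cardiomyocytes and macrophages 2 each, while no member was led by fibroblasts. Over all features the shares led were 3.51% for endothelial and 4.30% for epicardial cells, against 16.9% of the members for each of these classes. Cardiomyocytes and macrophages led fewer members (3.39% each) than features overall (6.73% and 5.93%), mural cells led 5.08% against 2.21%, and fibroblasts led 1.39% of all features. Members just inside the limit of 2-fold were Efnb3 at 2.04-fold and Slit3 at 2.05-fold, and those just outside were Efna1 at 1.94-fold and Ephb2 at 1.97-fold. Epicardial cells were found in the GFP-positive library alone, so for their 10 members the class and the library cannot be told apart. Of the 17 other led members, 13 were highest in the same class in every library with at least 20 cells of it. The leading class was taken from these same libraries pooled, so this count is not independent of it. To be highest needed no 2-fold lead: Slit3 in RA was at 29.8 CPM in mural against 22.0 CPM in endothelial cells. Sema3g counted in the GFP-negative library on 4 endothelial UMIs. No share over all features was taken for this count.

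Epicardial cells, which form the outer covering of the heart, led 4 of the secreted class 3 semaphorins, and 4.30% of all features. They did not lead Sema3a, Sema3f or Sema3g. Sema3c, known for its role in outflow tract formation, was at 106.1 CPM (98.9 to 113.7) in epicardial cells, at 45.0 CPM in GFP-negative fibroblasts and at 4.15 CPM in RA fibroblasts. Sema3d, known in the epicardium and in pulmonary vein patterning, was at 83.6 CPM (77.2 to 90.4) in epicardial cells, against 29.5 and 20.8 CPM in those fibroblasts and 12.5 CPM in GFP-positive endothelial cells. Among the 6 classes compared, both genes were thus highest in epicardial cells, with fibroblasts next when pooled. Sema3b stood at 25.9 CPM (22.4 to 29.8) in epicardial cells and at 11.0 and 8.21 CPM in GFP-negative and RA fibroblasts. The 33 glial cells of the GFP-negative library, too few to be compared, had Sema3b at 330.0 CPM and Sema3c at 157.8 CPM. Sema3e, a ligand that binds Plxnd1 without a neuropilin, was scarce, with 37 of its 47 UMIs in epicardial cells (4.87 CPM), and macrophages had none. Set against a floor of 3 UMIs in macrophages, its lead was at least 3.86-fold, and the interval of the ratio itself began at 2.99. Fibroblast markers summed to 8154 CPM in the epicardial gate and endothelial markers to 551 CPM, with all 8 of each list met, and their part in these levels was not tested.

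Sema3a, Sema3f and Sema3g had their highest pooled level in endothelial cells, and Sema3g alone of these had a lead of 2-fold. Sema3g was at 19.6 CPM (18.2 to 21.2) in GFP-positive endothelial cells, at 2.01 CPM in GFP-negative and 2.30 CPM in RA endothelial cells, and at 1.58 CPM in epicardial cells. The pooled lead of Sema3g over epicardial cells was 11.0-fold (6.28 to 21.5), and it rested on the GFP-positive library, where Sema3g was 8.55 times as high as in RA endothelial cells. Sema3f, which repels through neuropilin 2, was at 43.7 CPM in GFP-positive endothelial cells but at 4.52 and 4.27 CPM in those of the GFP-negative and RA libraries, and at 26.6 CPM in epicardial cells. Sema3a, a repellent known to pattern the sympathetic nerves of the heart, stood at 19.5, 11.1 and 16.1 CPM in endothelial cells of the GFP-positive, GFP-negative and RA libraries and at 12.6 CPM in epicardial cells. Neither Sema3f nor Sema3a had a leading class at 2-fold or more, with pooled levels 1.454 and 1.49 times those of epicardial cells.

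Of 19 semaphorins compared, 8 had a leading class, against 24.1% of all features, and 3 of these 8 were membrane-bound. Sema6a was at 69.1 (66.4 to 71.9), 65.8 and 57.8 CPM in endothelial cells of the GFP-positive, GFP-negative and RA libraries, and at 13.04 to 13.97 CPM in epicardial cells and fibroblasts. This endothelial level was alike in the 3 libraries and 4.93 times that of fibroblasts when pooled. Sema5b was at 35.0 CPM (28.1 to 43.1) in GFP-negative mural cells and at 66.1 CPM (40.4 to 102.1) in the 27 RA mural cells, 14.5 times the pooled level of endothelial cells, the next class. Sema6b was led by endothelial cells at 4.88 CPM, with an interval of the lead (0.978 to 7.23-fold) that includes equality. Sema6d was spread over endothelial cells (25.8, 43.7 and 39.4 CPM) and cardiomyocytes (37.1, 11.97 and 18.9 CPM, in the same order of libraries). Sema5a was spread over epicardial cells (79.8 CPM), mural cells (79.9 and 59.5 CPM in the GFP-negative and RA libraries) and fibroblasts (46.2 and 44.7 CPM).

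The receptors of semaphorins went with different classes. Plxnd1, the plexin for Sema3e that is known from endothelial cells, was at 122.8 (119.1 to 126.5), 129.2 and 141.8 CPM in endothelial cells of the GFP-positive, GFP-negative and RA libraries, 5.82 times the pooled level of mural cells. Plxnc1, the receptor of Sema7a, was at 20.8, 14.6 and 17.4 CPM there, and its lead over the next class was 4.82-fold. Plxna4, a co-receptor for class 3 semaphorins, was at 108.0 CPM (100.7 to 115.6) in epicardial cells, against 51.9 CPM in GFP-positive cardiomyocytes and 35.3 CPM in GFP-positive endothelial cells. The antisense feature Plxna4os1 was led by macrophages at 14.3 CPM, where Plxna4 itself was at 5.46 CPM; whether counting used strand is not given in the sources used here, so reads of the pair may not be told apart. Plxnb3 was also led by macrophages, on 8 UMIs. Plxna2 was at 23.4, 20.6 and 15.8 CPM in endothelial cells and at 26.0, 5.98 and 7.08 CPM in cardiomyocytes, with no lead.

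Both neuropilins were highest in endothelial cells without a lead of 2-fold. Nrp1, a receptor shared by class 3 semaphorins and vascular endothelial growth factor, was at 384.6, 517.1 and 473.9 CPM in endothelial cells of the GFP-positive, GFP-negative and RA libraries, at 226.1 and 234.8 CPM in GFP-negative and RA mural cells, and at 240.5 and 163.3 CPM in their fibroblasts. Cardiomyocytes, at 31.8 to 50.8 CPM, and epicardial cells, at 57.9 CPM, were low in Nrp1. Nrp2 was at 55.5, 62.8 and 54.5 CPM in endothelial cells, at 45.8 and 23.9 CPM in GFP-negative and RA macrophages and at 15.8 CPM in epicardial cells.

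Of the Slits and netrins, the secreted ligands of the remaining systems, 4 could be compared: mural cells led Slit3, endothelial cells led Ntn4, and Slit2 and Ntn1 had no lead. Slit3 was at 106.3 CPM (94.0 to 119.8) in GFP-negative mural cells and at 29.8 CPM (13.6 to 56.5) in RA mural cells, against 47.8 CPM in epicardial cells, 33.9 and 15.6 CPM in GFP-negative and RA fibroblasts, and 17.9 to 22.3 CPM in endothelial cells and cardiomyocytes of all 3 libraries. Slit2 was at 45.7 and 55.2 CPM in GFP-negative and RA fibroblasts, at 30.3 and 39.7 CPM in their mural cells, and at 12.1 CPM or less in endothelial cells. Pooled over libraries, Slit3 was thus highest in mural and next in epicardial cells, while Slit2 was highest in fibroblasts. Ntn1, the founding netrin, was at 29.3 and 16.3 CPM in GFP-negative and RA fibroblasts, at 17.9, 38.9 and 22.4 CPM in cardiomyocytes and at 19.3, 7.04 and 8.21 CPM in endothelial cells of the GFP-positive, GFP-negative and RA libraries. Ntn4, a netrin of basement membranes, was nearly limited in these counts to GFP-positive endothelial cells, with 250 UMIs against 0 UMIs in GFP-negative and 1 UMI in RA endothelial cells, so its endothelial lead of 2.61-fold did not hold in those libraries.

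Their receptors were mostly low, and 1 of them was endothelial. Robo4, a Robo known from endothelium, was at 14.9 (13.7 to 16.3), 46.2 (37.3 to 56.7) and 34.1 CPM (27.9 to 41.4) in endothelial cells of the GFP-positive, GFP-negative and RA libraries and at 2.24 CPM or less in cardiomyocytes, fibroblasts, mural and epicardial cells. Its pooled lead was 8.02-fold over epicardial cells. Robo1 and Robo2, the main Slit receptors on axons, were at 7.14 and 8.11 CPM in GFP-negative fibroblasts and at 3.57 and 7.78 CPM in GFP-positive endothelial cells, with no lead. Unc5b, a netrin receptor known to restrain sprouting, was at 60.03 and 96.5 CPM in GFP-negative and RA fibroblasts, at 54.0 and 76.1 CPM in their mural cells and at 83.5 CPM in GFP-positive cardiomyocytes, so it had no leading class. Unc5c was highest in GFP-negative mural cells at 11.0 CPM.

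Of 19 ephrins and Eph receptors compared, 11 had a leading class, against 24.1% of all features. The ligand Efnb2 was at 95.5 CPM (92.2 to 98.8) in GFP-positive endothelial cells, at 31.2 and 39.1 CPM in GFP-negative and RA endothelial cells, and at 32.7 and 59.5 CPM in the mural cells of those 2 libraries. Its pooled lead of 2.47-fold over mural cells therefore rested on the GFP-positive library; mural cells were higher in RA, and the intervals of both classes overlapped in the GFP-negative library. Its receptor Ephb4 was at 134.8 (131.0 to 138.7), 99.5 and 115.2 CPM in endothelial cells and at 33.2 CPM or less in every other class and library compared, a lead of 4.56-fold. Efnb1 was spread over epicardial cells (62.0 CPM), fibroblasts (50.1 and 56.6 CPM) and cardiomyocytes (34.0, 41.9 and 39.0 CPM). Efnb3 was led by cardiomyocytes, at 9.58, 16.5 and 21.3 CPM in the GFP-positive, GFP-negative and RA libraries.

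A-type ephrins are anchored to the membrane by a lipid, and 2 of the 5 were led by epicardial cells, which led 4.30% of all features. Efna5 was at 97.4 CPM (90.5 to 104.7) in epicardial cells, at 47.2 CPM in GFP-positive endothelial cells, at 41.4 CPM in GFP-negative mural cells and at 4.02 and 4.92 CPM in GFP-negative and RA endothelial cells. Efna2 was at 42.3 CPM in epicardial cells against 17.6 and 13.9 CPM in GFP-negative and RA fibroblasts. Efna1, the ligand of Epha2, was at 125.6, 153.8 and 126.7 CPM in endothelial cells and at 65.4 CPM in epicardial cells, just under the 2-fold limit. Epha2 itself was at 22.9 CPM in epicardial cells and at 16.0, 10.6 and 6.56 CPM in endothelial cells.

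Among the Eph receptors, Epha4, which binds ephrins of both types, was the guidance gene that most set cardiomyocytes apart. It was at 137.2 (124.8 to 150.6), 145.1 (117.7 to 177.0) and 109.8 CPM (88.6 to 134.5) in cardiomyocytes of the GFP-positive, GFP-negative and RA libraries, against 22.1, 8.04 and 6.24 CPM in endothelial cells, 12.6 and 9.89 CPM in GFP-negative and RA fibroblasts and 11.4 and 9.92 CPM in their mural cells. The pooled cardiomyocyte level was 6.61 times that of endothelial cells (5.95 to 7.34), the next class when pooled but not within the GFP-negative or RA library, and the intervals of the 3 cardiomyocyte libraries overlapped. Epha3 was at 72.1 CPM (62.0 to 83.3) in GFP-negative mural cells and at 37.5 CPM in GFP-negative fibroblasts, but at 0 UMIs in the 27 RA mural cells, with an interval up to 12.2 CPM. Fibroblast markers summed to 6254 CPM in GFP-negative and 1184 CPM in RA mural cells. Their part in the mural levels of Epha3 and Slit3 was not tested. Ephb6, a receptor without kinase activity, was at 32.5 CPM (28.6 to 36.8) in epicardial cells and at 6.61 CPM or less in the other classes compared, a lead of 7.85-fold over mural cells. Epha1 and Ephb1 were led by epicardial cells at 14.5 and 11.5 CPM and Epha5 by endothelial cells at 13.96 CPM, each under 20 CPM.

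**Figure D1:**
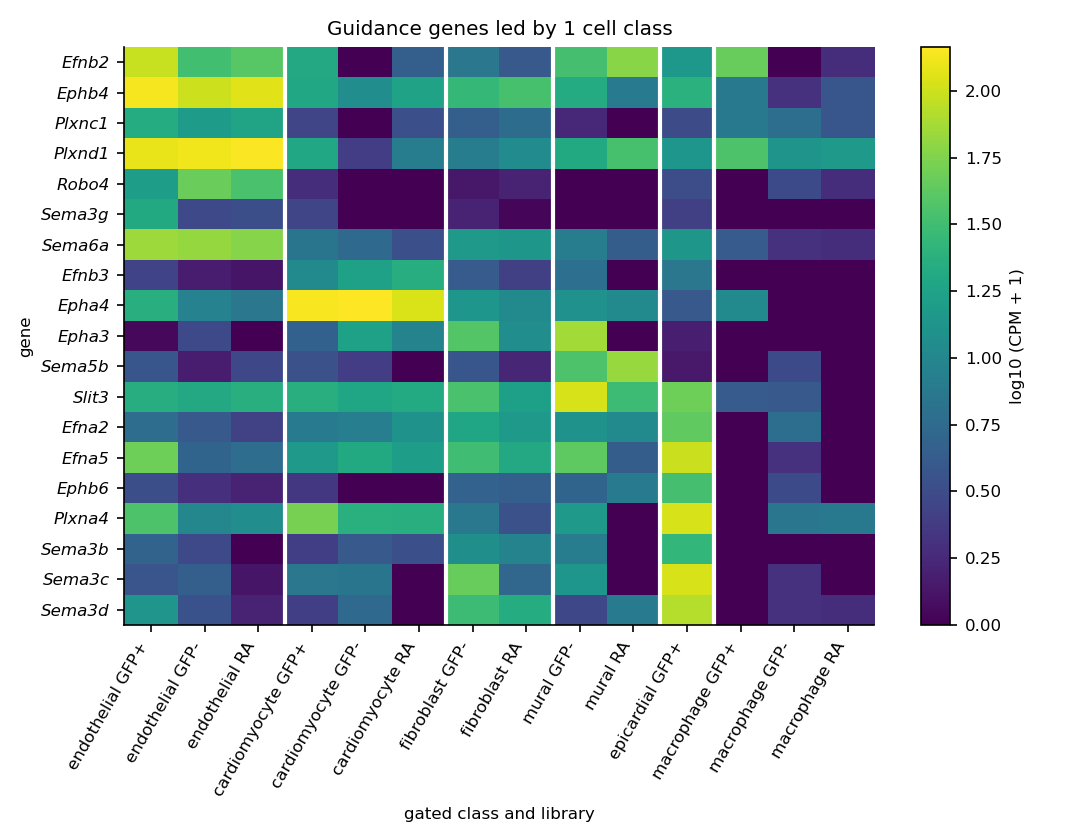
Levels of 19 guidance genes with a leading class (rows) in each class and library with at least 20 cells (14 columns), as log10 of CPM plus 1, dark for low and yellow for high. Rows are to be read along, since levels of different genes are not compared; Epha4 is brightest in the 3 cardiomyocyte columns at 109.8 to 145.1 CPM, while Efnb2 and Epha3 do not keep their leading class in every library.

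Of the other members, 13 had under 20 UMIs in the 6 classes and were not compared. Epha6, Epha8, Epha10, Plxna4os3 and 2 of the 3 Ntn5 features had 0 UMIs in all barcodes. The remaining 7 were Robo3, Slit1, Unc5a, Unc5d, Sema4f, the third Ntn5 feature and Plxna4os2, with between 2 and 18 UMIs in the classes. Members with 20 UMIs but no lead that are not described elsewhere, such as Sema4a, Sema4b, Sema4c, Plxna1, Plxnb1, Plxnb2 and Efna4, were below 80 CPM in every class and library compared.

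Within the endothelial class of the GFP-positive library, guidance genes separated arterial, venous, endocardial and lymphatic cells. These kinds were gated on further markers, again none of them a guidance gene, and held 456 arterial, 121 venous, 441 endocardial and 165 lymphatic cells, while 45 capillary cells were too few to enter the comparison and 1189 cells were left ungated. Of 51 members tested, 19 had a leading kind at 2-fold or more over the next kind, against 10.8% of all 12395 features. Arterial cells led 6 members (11.8%, against 2.72% of all features), lymphatic cells 5 (9.80% against 3.74%), and venous and endocardial cells 4 each (7.84%, against 1.43% and 2.90%).

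Arterial cells were marked by Sema3g and Efna5. Sema3g was at 76.5 CPM (582 UMIs) in arterial cells against 0.806, 0.554 and 0.431 CPM in endocardial, venous and lymphatic cells, a lead of 94.9-fold (40.4 to 293.2), and at 17.2 CPM in the 45 capillary cells. Efna5 was at 153.5 CPM in arterial cells against 12.8 CPM in venous, 11.0 CPM in endocardial and 8.19 CPM in lymphatic cells, a lead of 12.03-fold (7.98 to 19.1). Sema7a, an anchored semaphorin, was at 27.9 CPM in arterial cells and at 2.16 CPM or less in the other 3 kinds. Capillary cells also carried Sema7a, at 31.5, 23.5 and 41.6 CPM in the GFP-positive, GFP-negative and RA libraries, so the intervals of arterial and capillary cells overlapped. Robo4 went the other way, at 93.0 (71.8 to 118.6), 62.6 and 59.7 CPM in capillary cells of the same libraries against 8.41 CPM in arterial cells. Efna3, Ephb6 and Sema4b were led by arterial cells below 5 CPM, and the intervals of the lead include equality for Efna3 (0.782 to 28.2) and Ephb6 (0.884 to 7.35).

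The promoters of these 4 genes are shown because arterial cells stood above venous, endocardial and lymphatic cells in the first 3 and below capillary cells in Robo4; they were chosen after these levels were seen. Each is the stretch of 250 bases before the start of the gene in RefSeq on build GRCm38.p6, written 5′ to 3′ on the strand of the gene and taken from the reference, not from these cells. Sema3g lies at chr14:31217623-31217872 on the plus strand, Efna5 at chr17:62881318-62881567 on the minus strand, Sema7a at chr9:57939862-57940111 on the plus strand and Robo4 at chr9:37401722-37401971 on the plus strand. Capitals mark matches on either strand to AGGAAG, a core of the sites that ETS factors bind.
Sema3g: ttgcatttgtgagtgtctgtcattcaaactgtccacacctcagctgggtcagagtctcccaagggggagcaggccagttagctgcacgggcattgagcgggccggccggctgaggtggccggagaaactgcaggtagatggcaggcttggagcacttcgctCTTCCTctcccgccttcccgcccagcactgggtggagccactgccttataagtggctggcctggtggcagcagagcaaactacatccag
Efna5: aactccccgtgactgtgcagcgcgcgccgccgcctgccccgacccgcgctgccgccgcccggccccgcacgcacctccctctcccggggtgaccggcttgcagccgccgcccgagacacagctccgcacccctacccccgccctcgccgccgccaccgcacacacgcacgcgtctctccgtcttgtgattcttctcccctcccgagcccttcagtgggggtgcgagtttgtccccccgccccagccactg
Sema7a: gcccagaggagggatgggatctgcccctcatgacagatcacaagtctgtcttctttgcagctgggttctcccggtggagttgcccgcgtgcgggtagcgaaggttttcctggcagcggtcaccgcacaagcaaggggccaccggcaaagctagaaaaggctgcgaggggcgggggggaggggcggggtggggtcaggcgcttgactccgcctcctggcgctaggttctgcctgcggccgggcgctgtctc
Robo4: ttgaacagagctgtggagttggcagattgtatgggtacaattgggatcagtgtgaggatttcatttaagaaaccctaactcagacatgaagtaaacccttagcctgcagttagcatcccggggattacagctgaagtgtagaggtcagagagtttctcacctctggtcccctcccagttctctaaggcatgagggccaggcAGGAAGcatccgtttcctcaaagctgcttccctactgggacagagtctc
The ETS letters were met once in the Sema3g and once in the Robo4 promoter, and in 29.5% of all 32851 mouse promoters of this length. ACAAAG, a SOX core met in 16.5% of promoters, and GTGGGAA, an RBPJ core met in 5.42%, were in none of the 4; each was searched on both strands and counted apart from the others. The share of G and C was 60.4% for Sema3g, 74.8% for Efna5, 66.4% for Sema7a and 49.6% for Robo4, against a median of 52.4% over all promoters. These matches describe letters only.

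Lymphatic cells differed in both neuropilins. Nrp2, which in lymphatics acts with a growth factor receptor, was at 256.1 CPM (594 UMIs) in lymphatic cells against 103.7 CPM in venous, 29.3 CPM in endocardial and 8.01 CPM in arterial cells, a lead of 2.47-fold (2.09 to 2.93). Nrp1 was at 29.3 CPM in lymphatic cells and at 386.8 to 557.7 CPM in the other 4 kinds, capillary cells included. Ntn1 was at 72.4 CPM in lymphatic cells against 25.8 CPM in arterial cells (2.81-fold), and Sema3d at 72.9 CPM against 16.1 CPM in venous cells (4.53-fold). Ephb1 and Sema6b were also led by lymphatic cells, at 17.7 and 22.0 CPM. GFP-positive capillary cells, left aside here, had Sema6b at 11.45 CPM (4.94 to 22.6), an interval that overlapped the lymphatic one (16.4 to 28.9). Lymphatic cells were gated in the GFP-positive library, with 1 further cell in the GFP-negative library, so none of this could be repeated in another library.

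Endocardial cells, which line the heart chambers, were gated in all 3 libraries, so their levels could be set beside those of capillary cells in each. Epha7 was at 145.6 (136.2 to 155.4), 67.6 and 94.5 CPM in endocardial cells of the GFP-positive, GFP-negative and RA libraries, against 10.0, 1.304 and 1.13 CPM in capillary cells of these libraries and 17.7 CPM in venous cells. Plxnc1 was at 41.4, 36.9 and 26.2 CPM in endocardial cells against 4.29, 0 and 4.50 CPM in capillary cells. Sema3a was at 40.5, 27.7 and 32.7 CPM in endocardial and at 1.43 CPM or less in capillary cells, with lymphatic cells at 33.6 CPM, and Slit3 was at 42.9, 36.9 and 35.6 CPM in endocardial against 2.61 CPM or less in capillary cells. Sema5a and Efnb3 were led by endocardial cells at 11.8 and 3.87 CPM, with an interval of the lead of Efnb3 (0.909 to 15.5) that includes equality. With capillary cells left aside, venous cells led Sema6a at 151.4 CPM against 68.5 CPM in lymphatic cells, and Robo4 at 28.8 CPM against 13.4 CPM in lymphatic cells. Capillary cells of the GFP-positive library had Sema6a at 118.8 CPM (94.6 to 147.2), and this interval overlapped that of venous cells (133.9 to 170.4). Venous cells also led Unc5c at 17.2 CPM against 4.67 CPM in endocardial cells, and Sema6c at 8.87 CPM.

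The classical pair of arterial ligand and venous receptor was graded in these cells, and neither gene had a leading kind. Efnb2 was at 129.3 CPM in arterial, 94.4 CPM in lymphatic, 89.6 CPM in endocardial, 68.7 CPM in capillary and 50.5 CPM in venous cells. Ephb4 was at 182.8 CPM in lymphatic, 151.9 CPM in venous, 130.6 CPM in endocardial, 107.3 CPM in capillary and 83.7 CPM in arterial cells. Arterial cells were thus the highest in Efnb2 and the lowest in Ephb4, and venous cells the lowest in Efnb2. For Efnb2, the venous (40.6 to 61.9 CPM) and capillary intervals (50.65 to 91.1 CPM) overlapped. For Ephb4, the arterial (77.3 to 90.45 CPM) and capillary intervals (84.4 to 134.5 CPM) overlapped. Unc5b was high in lymphatic (68.5 CPM), capillary (58.7 CPM) and arterial cells (45.7 CPM) and low in endocardial (13.2 CPM) and venous cells (6.65 CPM). Plxnd1 was within 83.6 to 186.3 CPM in all 5 kinds.

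**Figure D2:**
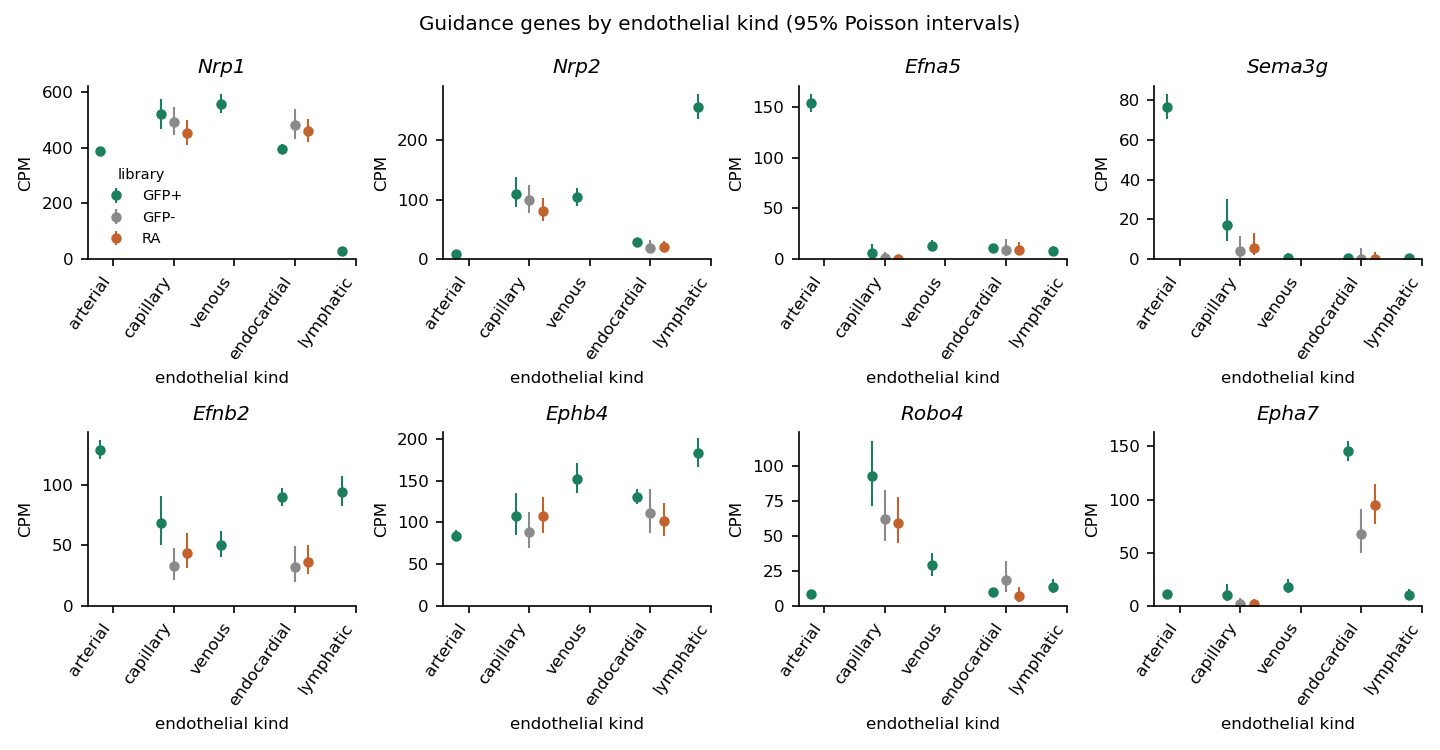
Levels (CPM, linear axes from 0) of 8 guidance genes in 5 endothelial kinds, with points for the GFP-positive (green), GFP-negative (grey) and RA (orange) libraries where they held at least 20 cells of a kind and bars for 95% Poisson intervals. Nrp1 is low and Nrp2 high in lymphatic cells, Sema3g and Efna5 are high in arterial cells, Robo4 in capillary and Epha7 in endocardial cells.

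Endothelial cells of the GFP-positive library carried more of several secreted ligands, of Efnb2 and Efna5 and of Plxna4 than those of RA. Of 55 members tested, 22 were higher by 2-fold or more, against 12.6% of all 13440 features, and 2 were lower, against 5.34%. The median log2 ratio of the members was 0.622, and that of all features tested 0.0361. Higher ligands included Sema3f (43.7 against 4.27 CPM, 10.2-fold, 5.97 to 19.3), Efna5 (47.2 against 4.92 CPM, 9.58-fold), Sema3d (12.5 CPM against 2 UMIs, 19.1-fold, 5.25 to 158.1), Slit2 (12.1 against 3.28 CPM), Ntn1 (19.3 against 8.21 CPM) and Efnb2 (95.5 against 39.1 CPM, 2.44-fold). Sema3b, with 136 UMIs against 0, was at least 3.98-fold higher, and Ntn4, with 250 UMIs against 1, had a ratio of 21.9 (3.90 to 869.9). Efna2, Efnb3, Sema3c, Sema3g, Sema4a and Sema4b completed the higher ligands, with 1 to 7 UMIs each in RA.

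Higher receptors in the same comparison were Plxna4 (35.3 against 10.5 CPM, 3.36-fold, 2.37 to 4.93), Epha4 (22.1 against 6.24 CPM, 3.55-fold), Epha2 (16.0 against 6.56 CPM, 2.44-fold), Robo2 (7.78 CPM against 3 UMIs, 7.90-fold) and Unc5c (6.94 CPM against 3 UMIs, 7.05-fold), besides Ephb3, Ephb6 and Plxnb1 on 2 or 3 RA UMIs each. Robo4 was lower, at 14.9 against 34.1 CPM (0.437-fold, 0.353 to 0.545), and so was Plxna3, at 23 against 6 UMIs (0.336-fold, 0.133 to 1.01). The kinds of endothelial cells differed between the libraries: arterial cells were 18.9% of the endothelial gate in the GFP-positive library against 1 cell in RA, and capillary cells 1.86% against 26.2%. Lymphatic cells numbered 165 against 0 in RA, and venous cells 121 against 5. Of the genes above, Sema3g and Efna5 were arterial and Robo4 capillary in the kinds. Sema3d and Ntn1 were led by lymphatic cells and Unc5c by venous cells, and Sema4b and Ephb6 were led by arterial cells at low levels. The part of the kinds in these differences was not tested. Epicardial markers summed to 139.9 CPM with 8 of 8 met in GFP-positive and to 88.3 CPM with 3 of 8 met in RA endothelial cells (Upk3b, Msln, Lrrn4, Muc16 and Krt8 at 0), and their part in the levels of the epicardial genes Sema3b, Sema3c, Sema3d, Efna2 and Ephb6 was not tested.

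Within endocardial cells alone (441 against 83 cells), 11 of 38 members were higher, against 10.5% of all 10898 features, and none was lower, against 3.37%. Sema3f was at 23.7 CPM (147 UMIs) with none in RA, a difference of at least 8.44-fold, and none in GFP-negative endocardial cells either. Efnb2 was at 89.6 against 36.5 CPM in RA (2.46-fold, 1.77 to 3.49) and 32.3 CPM in GFP-negative endocardial cells, and Plxna4 at 25.0 against 12.2 CPM (2.06-fold). Efna5 was at 11.0 against 9.36 CPM, under the limit, and Sema3d at 3.06 CPM against 0 UMIs. Epha4 was at 13.9 against 5.61 CPM (2.47-fold). The rest of the 11 were Efna2, Efnb3, Ntn4, Sema5a, Slit2, Unc5b and Unc5c, each with at most 7 UMIs in RA. Fibroblast markers summed to 589 CPM in GFP-positive and 1481 CPM in RA endothelial cells, with all 8 met in both, and their part was not tested.

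Endothelial cells of the GFP-negative library were set against the same RA cells as above, and nearly all members were within 2-fold. Of 33 members tested, none was higher by 2-fold, against 1.76% of all 10004 features, and Sema4d alone was lower (4.02 against 11.2 CPM, 0.360-fold, 0.144 to 0.793), against 3.47%. The median log2 ratio was 0.126 for the members and -0.0635 for all features. Robo4 at 46.2 against 34.1 CPM and Nrp1 at 517.1 against 473.9 CPM were both within the limit.

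Cardiomyocytes of the GFP-positive library carried more Unc5b, Ephb3, Plxna4 and Plxna2 than those of both other libraries. Of 29 members tested, 13 were higher by 2-fold or more, against 16.1% of all 9581 features, and Efnb3 alone was lower, against 4.05%. The median log2 ratio was 0.865 for the members and 0.123 for all features. Against GFP-negative cardiomyocytes, which were compared with the same GFP-positive cells, 11 of 32 members were higher, against 13.8% of all 9467 features, and 2 were lower, against 3.19%; the medians were 0.442 and 0.140.

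Unc5b, the netrin receptor, was at 83.5 CPM (73.8 to 94.0) in GFP-positive cardiomyocytes, at 15.0 CPM (7.17 to 27.5) in GFP-negative and at 16.5 CPM (9.04 to 27.7) in RA cardiomyocytes. The GFP-positive level was 5.05 times that of RA (2.96 to 9.36) and 5.58 times that of the GFP-negative library (2.99 to 11.8), and the intervals of the levels did not overlap. Ephb3 was at 39.9 CPM (33.3 to 47.4), 7.48 CPM (5 UMIs) and 2.36 CPM (2 UMIs), a ratio of 16.9 over RA (4.58 to 140.9). Plxna4 was at 51.9 CPM (44.4 to 60.4) against 22.4 CPM in each of the other libraries, 2.32 times RA. Plxna2 stood at 26.0, 5.98 and 7.08 CPM, 3.67 times RA, and Epha7 at 35.9, 25.4 and 8.26 CPM, 4.34 times RA. These 5 receptors were thus highest in the GFP-positive library, with GFP-negative Epha7 between the others. The Epha7 intervals of the GFP-positive (29.6 to 43.0 CPM) and GFP-negative libraries (14.8 to 40.7 CPM) overlapped. Among cells without an endothelial marker, described below, Ephb3 and Plxna2 had too few UMIs for a call against RA.

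Other receptors higher against RA were Nrp2, Plxnd1 and Robo1, and the ligands were Efna1, Efnb2, Sema3a, Sema6a and Sema6c. Sema3a had 31 UMIs (9.58 CPM) in the GFP-positive library and 0 in RA, at least 2.71-fold higher, and Efnb2 was at 19.2 CPM against 3 UMIs in RA and 0 in the GFP-negative library, at least 4.27-fold higher than in the latter. Sema6d was at 37.1 CPM against 11.97 CPM in GFP-negative cardiomyocytes (3.10-fold, 1.52 to 7.34) and 18.9 CPM in RA. Plxnb1 and Slit2 were also higher than in the GFP-negative library, each against 1 UMI. Efnb3 was lower than in RA, at 9.58 against 21.3 CPM (0.451-fold, 0.245 to 0.856). Ntn1, at 17.9 against 38.9 CPM, and Epha3, at 3.71 against 16.5 CPM, were lower than in GFP-negative cardiomyocytes. Fibroblast markers summed to 344 CPM in GFP-positive and 1572 CPM in GFP-negative cardiomyocytes, all 8 met in both, and their part in the levels of Ntn1 and Epha3 was not tested. Epha4, Efnb1 and Slit3 were within 2-fold in both comparisons.

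Endothelial markers summed to 349.9 CPM in GFP-positive cardiomyocytes, against 40.4 CPM in GFP-negative and 62.6 CPM in RA cardiomyocytes, with all 8 met in each, and epicardial markers to 119.6, 1.496 and 10.6 CPM, with 8, 1 and 4 of 8 met. The part of epicardial cells in the level of Plxna4, which they led in the pooled classes, was not tested. A split by the endothelial markers was also chosen after seeing the data. In the GFP-positive library 26 of 163 cardiomyocytes (16.0%, exact interval 10.7% to 22.5%) had no endothelial marker at 2 UMIs, against 44 of 48 and 57 of 60 in the other libraries. Among such cells alone, 3 of 14 members were higher than in RA, against 7.31% of all 5701 features, and 3 were lower, against 7.96%. Against the GFP-negative library 3 of 12 were higher, against 6.15%, and 3 lower, against 5.19%. Unc5b was at 87.7 CPM in such cells of the GFP-positive library against 16.2 CPM in RA (5.399-fold, 2.81 to 11.1). Plxna4 at 52.1 against 21.2 CPM (2.46-fold) and Epha7 at 40.3 against 8.74 CPM (4.61-fold) were also higher, while Ephb3 was at 30.8 CPM on 13 UMIs against 1 UMI, too few for a call. Efnb2, an endothelial gene in the pooled classes, was at 7.11 CPM on 3 UMIs against 3 UMIs in RA. Plxna2 was at 11.9 against 7.49 CPM on 5 and 6 UMIs, and Efnb1 (16.6 against 38.7 CPM), Efnb3 and Ntn1 were lower than in RA in these cells.

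**Figure D3:**
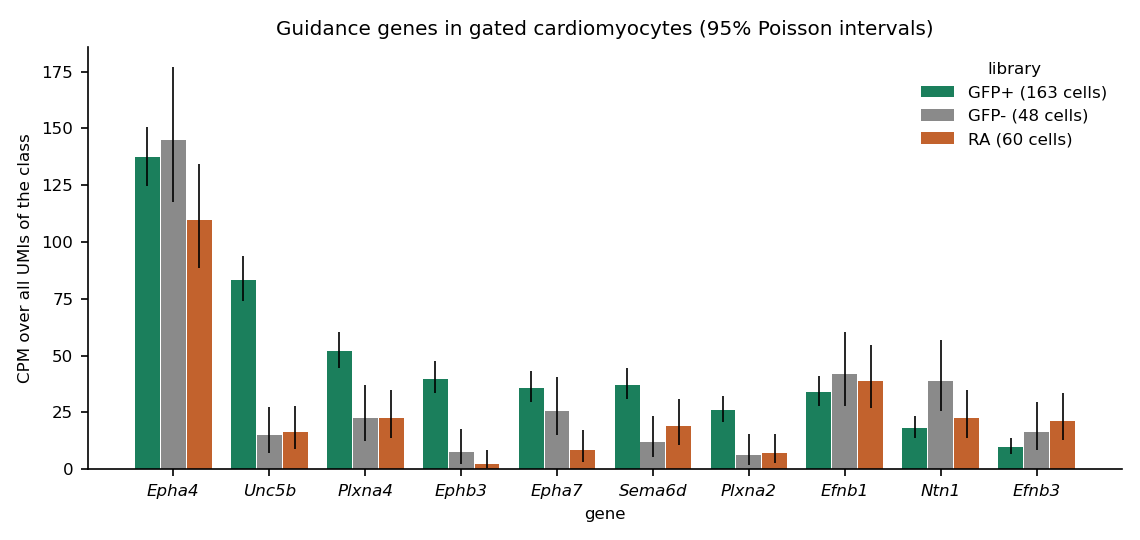
Levels (CPM, linear axis from 0) of 10 guidance genes in cardiomyocytes of the GFP-positive (163 cells), GFP-negative (48) and RA (60) libraries, with bars for the level and lines for 95% Poisson intervals. Unc5b, Plxna4, Ephb3 and Plxna2 stand higher in the GFP-positive library, Epha4 and Efnb1 have overlapping intervals in all 3, and Ntn1 and Efnb3 are lowest in the GFP-positive library.

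GFP-positive cardiomyocytes were further split, by genes that are not members, into 47 cells with Pvalb and Myl2 at 2 UMIs each, 30 cells with Tbx18 or Isl1, which are known from sinus node precursors, and 86 others. Between the Pvalb and Myl2 cells and the remaining 116, 3 of 28 members were higher, against 3.53% of all 9004 features, and 3 were lower, against 5.11%. Ephb3 was at 73.3 CPM (56.8 to 93.1) in the Pvalb and Myl2 cells, at 34.8 CPM in the others and at 7.33 CPM (2.38 to 17.1) in the Tbx18 or Isl1 cells. Sema3a (17.5 CPM on 16 UMIs against 2.93 and 7.93 CPM) and Plxna1 were higher in the Pvalb and Myl2 cells, too. Efnb3 had 25 of its 31 UMIs in the Tbx18 or Isl1 cells, at 36.7 CPM (23.7 to 54.1), against 2.19 CPM in the Pvalb and Myl2 cells and 2.44 CPM in the others. Nrp1 was at 54.3, 15.3 and 31.7 CPM and Efna5 at 26.4, 4.38 and 14.03 CPM, in the order Tbx18 or Isl1 cells, Pvalb and Myl2 cells and others. Unc5b was nearly even, at 95.3, 79.9 and 80.5 CPM, and Epha4 was at 82.1, 142.3 and 157.3 CPM. The subsets come from 1 library and hold few cells.

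Fibroblasts of the GFP-negative library carried more of several guidance genes than those of RA. Of 53 members tested, 15 were higher by 2-fold or more, against 9.47% of all 13457 features, and 1 was lower, against 3.02%. The median log2 ratio was 0.384 for the members and -0.0144 for all features. Among ligands, Sema3c was at 45.0 CPM (42.2 to 47.9) against 4.15 CPM (3.05 to 5.52), 10.9-fold higher (8.09 to 14.9), and Sema3a, with 81 UMIs against 0, at least 14-fold higher. Slit3 was at 33.9 against 15.6 CPM (2.17-fold, 1.84 to 2.57), Sema3f at 4.72 against 1.501 CPM (3.14-fold), Efnb2 at 6.18 against 3.002 CPM (2.06-fold), Sema5b at 2.79 against 0.706 CPM and Sema4g at 1.51 against 0.530 CPM. The lower member was Sema7a, at 0.962 against 2.30 CPM (0.419-fold, 0.224 to 0.774).

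Among receptors, Epha3 was at 37.5 CPM (35.0 to 40.2) in GFP-negative and 10.5 CPM (8.70 to 12.6) in RA fibroblasts, 3.57-fold higher, and Ephb2 at 14.3 against 5.74 CPM, 2.50-fold higher. Epha5 had 60 UMIs against 2, a ratio of 15.6 (4.12 to 131.4). Nrp2, Plxna3, Plxna4, Unc5c and Ephb1 were higher by 2.57 to 3.41-fold, each below 7 CPM. Slit2 (45.7 against 55.2 CPM), Unc5b (60.03 against 96.5 CPM), Efnb1 (50.1 against 56.6 CPM) and Nrp1 (240.5 against 163.3 CPM) were within 2-fold.

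The 2 sets of fibroblasts differed in Tcf21, a factor of resident cardiac fibroblasts and 1 of the 8 markers of the gate, which was at 201.9 CPM in the GFP-negative and 743.9 CPM in the RA cells. At least 1 Tcf21 UMI was met in 58.4% (56.0% to 60.7%) and 91.2% (88.8% to 93.2%) of them, with medians of 12143 and 15961 UMIs a cell, and in 26.6% and 65.7% after thinning each cell to 2000 UMIs. In endothelial cells of these libraries, which should lack the gene, 3.49% and 9.01% of cells had such a UMI, with medians of 10174.5 and 11599 UMIs a cell. A split of the fibroblasts by this gene was chosen after seeing the data. Among those with a Tcf21 UMI, 7 of 52 members were higher, against 5.4% of all 12701 features, and 1 was lower, against 2.72%. Sema3c was higher there, too, at 26.4 against 4.40 CPM (6.001-fold, 4.41 to 8.34), and so were Epha5, Ephb1, Plxna3, Sema3f, Sema4g and Unc5c. Epha3 at 16.9 against 10.9 CPM (1.55-fold), Slit3 at 30.0 against 16.0 CPM (1.88-fold) and Ephb2 at 10.5 against 5.92 CPM (1.77-fold) were then under the limit, and so were Efnb2, Nrp2, Plxna4 and Sema5b, at 1.46 to 1.85-fold. Sema3a had 9 UMIs against 0 in these cells, too few for a call. Among fibroblasts without a Tcf21 UMI, which were 722 against 61 cells, 31 of 45 members were higher, and so were 66.5% of all 11498 features, with 1 lower against 2.2%. In the GFP-negative library Epha3 was at 73.1 CPM in the cells without and at 16.9 CPM in those with a Tcf21 UMI. Mural cells of that library had Epha3 at 72.1 CPM.

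**Figure D4:**
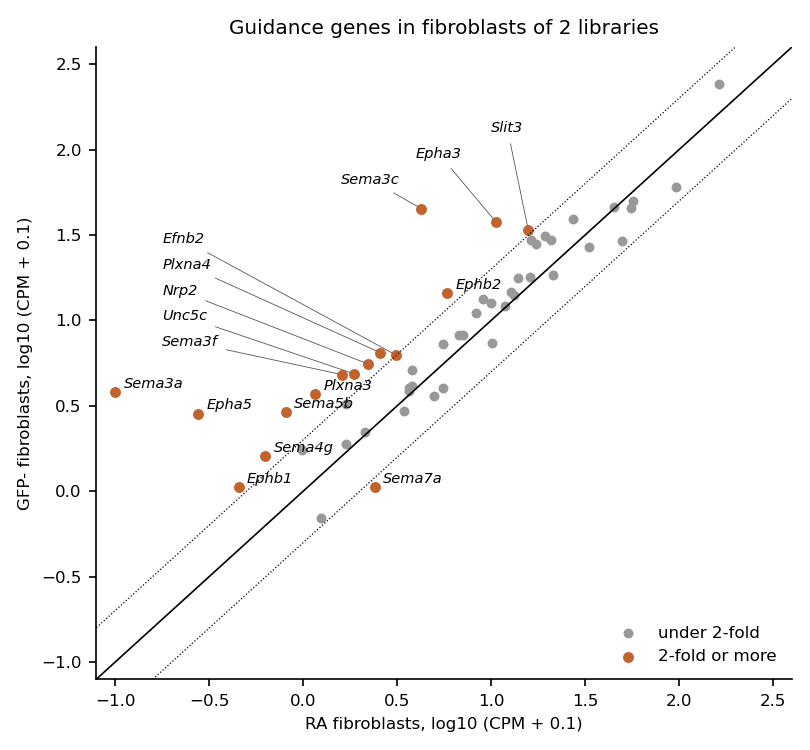
Levels of the 53 members tested in fibroblasts of the RA (horizontal) and GFP-negative (vertical) libraries, as log10 of CPM plus 0.1, with the solid line at equality and dotted lines at 2-fold. Orange points are the 15 higher members and Sema7a, the 1 lower member; Sema3c lies at 45.0 against 4.15 CPM and Sema3a at the left edge has 0 UMIs in RA.

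The further genes of these pathways, 34 co-receptors, netrin relatives and signalling proteins from a list chosen for their roles, were read in the same way. Of 31 tested, 8 had a leading class, a share near the 24.1% of all features. Epicardial cells, gated in the GFP-positive library alone, led 4 of the 31, against 4.30% of all features. These were neogenin (Neo1), a netrin receptor, at 104.0 CPM against 44.2 CPM in mural cells, Dpysl5 at 22.5 against 1.73 CPM, and Draxin and Ngef below 7 CPM. Draxin, on 22 epicardial UMIs, and Ngef, on 46, were set against a floor of 3 UMIs in macrophages, which had none. Dpysl3 was led by fibroblasts at 206.4 CPM, Mical1 by mural cells at 54.5 CPM, Mical3 by cardiomyocytes at 66.9 CPM and Nck1 by endothelial cells at 76.7 CPM. Higher in the GFP-positive library against RA were 8 of 29 in endothelial cells (12.6% of all features), with 1 lower (5.34%), and 7 of 21 in cardiomyocytes (16.1%), with none lower (4.05%). Against GFP-negative cardiomyocytes 5 of 19 were higher (13.8%) and none lower (3.19%), and in GFP-negative against RA fibroblasts 8 of 31 were higher (9.47%) and none lower (3.02%). Flrt3, an adhesion protein that binds Unc5 receptors, was at 13.3 CPM in GFP-positive cardiomyocytes against 2.99 CPM in GFP-negative and 1.18 CPM in RA cardiomyocytes, and at 13.8 against 1.64 CPM in GFP-positive against RA endothelial cells.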

How the data were processed

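Each of the 3 libraries came as a matrix of raw counts of UMIs, deposited by the authors with genes in rows and cell barcodes in columns and made with Cell Ranger on mouse build mm9, per the submitters' processing notes; the version and any filter on barcodes are not given in the sources used here. Whether counting used strand is not given there either. A barcode was kept if it showed 500 genes or more and if mitochondrial genes held no more than 50% of its UMIs. Each cell went to the class with the most of 8 markers at 2 UMIs or more (7 for erythroid cells, since Ahsp was not found), with at least 3 markers and a lead of 2 over every other class. Other cells, 248 in the GFP-positive, 701 in the GFP-negative and 175 in the RA library, were left ungated, which also leaves out cells with markers of several classes; no doublet caller was run. Endothelial kinds were gated likewise at 1 UMI. Members matched a pattern over gene symbols, and 70 of 72 were found in the reference name table.

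Counts were summed per class and library and divided by all UMIs of the sum, as CPM. Levels have exact Poisson intervals, ratios exact conditional binomial intervals and shares exact Clopper-Pearson intervals, all at 95%; they cover counting error only. A class or kind led a gene at 2 times the next or more with at least 20 UMIs and 50 cells, and a contrast was called at 2-fold with at least 20 UMIs in both sums together; a level of 0 was set to a floor of 3 UMIs. Named are the members with a lead at 20 CPM or more, those past 2-fold in a contrast, and members described by role. With 1 library per group no test across samples was made. The members and lists were chosen with earlier results of these data known. The ratio, its interval and the 2-fold call were tested on simulated counts of known fold for GFP-positive against RA endothelial cells. Gating, leads and thinning were not tested in this way. Promoters came from RefSeq on GRCm38.p6, not from the authors' build. Python 3.11.15, numpy 2.4.6, scipy 1.17.1, pandas 2.3.3 and matplotlib 3.10.9 were used. The alternatives tried were stricter quality filters, other marker thresholds and leads, a higher UMI minimum, equal weight per cell, leaving out the deepest cells, haemoglobin and mitochondrial genes or shared barcodes, and splits by a marker.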

Additional observations from a re-analysis of the deposited data

Results flagged for a closer look

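Efnb3, the ligand ephrin-B3, went in opposite directions in the same comparison of libraries. The log2 ratio of the GFP-positive to the RA library was 2.40 in endothelial cells (60 UMIs against 1) and -1.15 in cardiomyocytes (31 UMIs against 18). The endothelial value rests on 1 UMI in RA, and the difference between the classes was not tested. The lower call in cardiomyocytes was lost under several of the alternatives given below. Of the 31 GFP-positive cardiomyocyte UMIs, 25 were in the 30 cells with Tbx18 or Isl1. Efnb3 was at 36.7 CPM in these cells, against 21.3 CPM in RA cardiomyocytes.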

How the results depend on the processing

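No paired analysis was possible because each group has 1 library. Over 136 alternatives of 14 counts, 104 stayed within 1.5 times. The number of class leads (27) and that of kind leads (19) did so under every alternative run. This compares numbers only, and does not show that the same members were led by the same class. No epicardial lead could be made when no other class had 3 markers, since 18 epicardial cells were left. With at least 50 UMIs, the cardiomyocyte members higher against RA went from 13 to 8 and the lower from 1 to 0, the lower against the GFP-negative library from 2 to 1, the subset calls from 3 to 1 in both directions, the lower endothelial calls from 1 to 0 (GFP-negative against RA) and 2 to 1 (GFP-positive against RA), and the lower fibroblast call from 1 to 0. The lower call in cardiomyocytes against RA was also 0 without the deepest cells, with equal weight per cell, with markers at 1 UMI, and when no other class had 3 markers; equal weight gave 1 lower against the GFP-negative library. GFP-negative against RA endothelial cells had 1 higher with a lead of 3, without the deepest cells, with equal weight, without haemoglobin and mitochondrial genes and with markers at 1 UMI, and 0 lower when no other class had 3 markers. GFP-positive against RA endothelial cells had 1 lower with a lead of 3 or without the deepest cells. Fibroblasts had 2 lower with a lead of 3, without the deepest cells, with equal weight, and when no other class had 3 markers. Splits were also chosen after seeing the data. In endocardial cells, 11 of 38 members were higher (10.5% of all features) in place of 22 of 55 (12.6%), and 0 lower (3.37%). In cardiomyocytes without an endothelial marker, 3 of 14 were higher (7.31%) and 3 lower (7.96%) against RA, and 3 of 12 were higher (6.15%) against the GFP-negative library. Fibroblasts with a Tcf21 UMI had 7 of 52 higher (5.4%). Those without had 31 of 45 higher, near the 66.5% of all features. For 34 named members, 268 of 295 alternatives stayed, 26 moved and 1 turned: the mural lead of Epha3 went from a log2 of 1.18 to -1.41 when no other class had 3 markers, a setting that left 18 epicardial cells and so no epicardial values. In each case the cause was not tested. Depth limits the calls that rest on 0 to 3 UMIs in RA or GFP-negative cells.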

Other observations

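A glial class of 33 cells, all in the GFP-negative library, was too small to enter the comparisons. In its 278780 UMIs, Sema3b was at 330.0 CPM (266.0 to 404.7), Epha5 at 193.7 CPM (145.5 to 252.7), Sema3c at 157.8 CPM (114.7 to 211.9) and Sema6d at 100.4 CPM (66.7 to 145.2). In the classes compared, Sema3b was at 25.9 CPM or less, and Epha5 was led by endothelial cells at 13.96 CPM. The receptors Nrp1 and Nrp2 stood at 96.9 and 71.7 CPM in the glial class. Fibroblast markers summed to 3738 CPM in it, and their part in these levels was not tested.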
